A study of Mus musculus with 6 samples.

Results

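The genes described here encode the cornified envelope, the desmosome and their partners in stratified epithelium. They were chosen by name: every symbol beginning with Sprr or Lce, the numbered desmogleins (Dsg) and desmocollins (Dsc), and 17 single genes (Ivl, Flg, Flg2, Hrnr, Krtdap, Sbsn, Dmkn, Trp63, Pkp1, Jup, Dsp, Evpl, Ppl, Perp, Calml3, Lypd3 and Sfn). Of the 21720 gene symbols in the deposited table, 62 met this rule, and 61 of them had a count above 0 in at least 1 library. RNA-seq was carried out on subcutaneous tumours of H22, a mouse hepatocellular carcinoma line labelled WT, grown in female BALB/c mice aged 6 to 8 weeks. The control group (Con) was given 0.5% carboxymethyl cellulose sodium and the luteolin group (Lut) 200 mg/kg luteolin, a plant flavonoid, by gavage in a daily volume of 0.2 mL over 21 days from a tumour volume of about 50 mm3. Each group gave 3 libraries of tumour tissue, and since nothing states that each came from a separate mouse, the spread between libraries may be technical. The tissue was whole tumour, so that host tissue and H22 cells were read together, and a lower level can mean fewer cells of a type or less RNA per cell, which bulk RNA cannot tell apart.

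Cells of a stratified epithelium such as the epidermis leave the basal layer, fill with keratin filaments and die as flat cornified cells. In doing so they replace the plasma membrane with the cornified envelope, a protein shell in which involucrin, loricrin, envoplakin, periplakin, small proline-rich proteins (Sprr) and late cornified envelope proteins (Lce) are crosslinked by transglutaminases. Desmosomes bind neighbouring cells: desmogleins and desmocollins cross the gap between them, and plakoglobin (Jup), plakophilins and desmoplakin (Dsp) tie these cadherins to keratin inside the cell. Desmoplakin and plakoglobin are also used by simple epithelia and hepatocytes, whereas Dsg1 and Dsg3, Dsc1 and Dsc3, Pkp1 and filaggrin (Flg) mark stratified epithelium. p63, the product of Trp63, is the master regulator of that lineage.

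The members were clustered in the genome. By the RefSeq table of GRCm38.p6, 40 of the 62 lie on chromosome 3, in the epidermal differentiation complex that holds the Sprr and Lce families, Ivl, Flg, Flg2 and Hrnr. Krtdap, Sbsn and Dmkn are neighbours on chromosome 7. The RefSeq promoter table held 45 of the members. In the 250 bases before the start site, a TATA box (TATAAA, either strand) was found in 18 of the 45 (40%), against 13% of the promoters of 27025 genes, and an AP-1 motif (TGANTCA, either strand) in 15 (33.3%) against 6.9%. A CCAAT box (CCAAT) was found in 12 (26.7%) against 34.5% and a GC box (GGGCGG) in 4 (8.9%) against 32.9%. Among the 29 members with 0 counts in every control library, 14 held TATAAA and 10 held TGANTCA. Among the 10 with at least 10 counts in every control library, 3 and 4 did. Many of these promoters belong to duplicated genes and are not independent, and a match is a description of letters only.

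The 150 bases before the start site of 7 members are printed because Sprr1a and Lce1g were read in every control library, whereas Lce1b, Flg, Hrnr, Krtdap and Dmkn had 0 counts in all 3. Capitals mark TATAAA and TGANTCA. The sequences run 5′ to 3′ on the strand of the gene (RefSeq, GRCm38.p6).
Sprr1a, chr3:92485882-92486031, minus strand: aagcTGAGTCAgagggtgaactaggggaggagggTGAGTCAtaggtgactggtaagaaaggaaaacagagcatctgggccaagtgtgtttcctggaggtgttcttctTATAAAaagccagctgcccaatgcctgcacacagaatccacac
Lce1g, chr3:92752339-92752488, minus strand: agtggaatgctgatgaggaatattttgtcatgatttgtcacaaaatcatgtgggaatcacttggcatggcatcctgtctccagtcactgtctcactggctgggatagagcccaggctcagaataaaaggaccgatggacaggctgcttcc
Lce1b, chr3:92656927-92657076, minus strand: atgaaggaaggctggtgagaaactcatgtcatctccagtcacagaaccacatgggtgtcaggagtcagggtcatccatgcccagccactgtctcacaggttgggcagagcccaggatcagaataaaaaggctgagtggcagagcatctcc
Flg, chr3:93273396-93273545, plus strand: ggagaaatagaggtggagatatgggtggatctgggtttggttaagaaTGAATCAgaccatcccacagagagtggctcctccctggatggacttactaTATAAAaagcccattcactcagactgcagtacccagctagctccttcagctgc
Hrnr, chr3:93319599-93319748, plus strand: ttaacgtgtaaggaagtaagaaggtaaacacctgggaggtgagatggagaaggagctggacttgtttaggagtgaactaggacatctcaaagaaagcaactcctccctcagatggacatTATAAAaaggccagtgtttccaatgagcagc
Krtdap, chr7:30787755-30787904, plus strand: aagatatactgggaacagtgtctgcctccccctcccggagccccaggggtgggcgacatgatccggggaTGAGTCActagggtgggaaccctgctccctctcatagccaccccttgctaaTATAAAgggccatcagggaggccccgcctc
Dmkn, chr7:30763606-30763755, plus strand: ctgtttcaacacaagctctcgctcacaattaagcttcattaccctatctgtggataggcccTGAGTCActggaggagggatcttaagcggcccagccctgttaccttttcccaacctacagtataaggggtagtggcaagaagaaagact
TATAAA began 43 bases before the start of Sprr1a, 53 before Flg, 31 before Hrnr and 30 before Krtdap. TGANTCA began 146 and 116 bases before the start of Sprr1a, 103 before Flg, 81 before Krtdap and 89 before Dmkn. Neither motif was found in these stretches of Lce1g and Lce1b, genes of the same family that differed in the control libraries.

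The libraries held 61081637 to 80442954 counts. Values are given as counts or as CPM, the count relative to the TMM-scaled library total, in the order of replicates 1, 2 and 3. The list of 7 keratins of keratinocytes summed to 3.23 to 4.28 CPM in the control libraries and to 344, 8488 and 14.6 CPM in the luteolin libraries, with 4 of its 7 genes above every control and 6 of 7 at 0 in every control. Luteolin replicate 2 stood apart from the other libraries in that sum and in most members, so the main counts and the fold changes named are also given without it. Afp, a marker of the labelled carcinoma, had 43.4 to 66.7 CPM in the control libraries and 32.7 to 41.8 in the luteolin libraries. Of the other genes of that list, Gpc3 had 0.633 to 1.30 CPM against 3.13 to 9.34, Alb had 0.868 to 60.3 against 26.0 to 133, and Hnf4a and Ttr, hepatocyte markers picked after their values were seen, had no more than 24 counts in any library.

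The members were read mainly in luteolin replicates 1 and 2. Their summed level was 455, 413 and 399 CPM in the controls and 693, 8210.1 and 289 CPM under luteolin. Replicate 2 of the luteolin group lay far above every other library, and replicate 3 lay below every control. Of the 62 genes, 39 had 0 counts in all 3 control libraries, and these 39 summed to 188, 3755 and 3.72 CPM in the luteolin libraries. A count of 0 allows up to 3 counts, at most 0.0465 CPM in a control library, which covers counting error only. Another 14 genes had at least 10 counts in every control library and made up nearly all of the control sum, 453, 412 and 398 CPM. In the luteolin libraries those 14 summed to 451, 3867 and 284 CPM. The highest value of a gene fell in luteolin replicate 2 for 58 of the 62, and the second highest in luteolin replicate 1 for 45. Luteolin replicate 2 was also the library with the most counts. The share of all genes highest there is not given here.

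**Figure D1:**
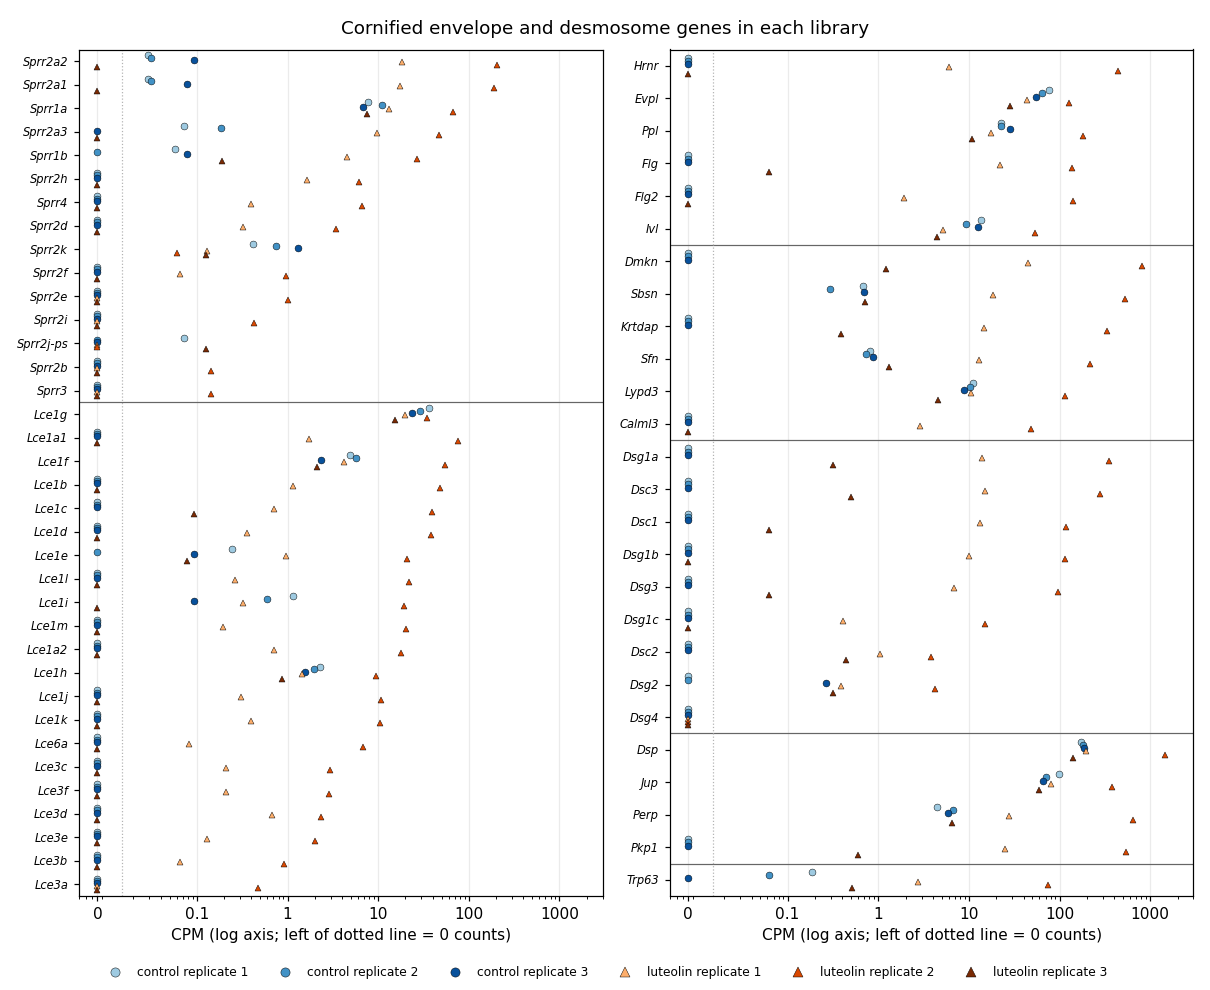
CPM of each of the 62 genes (log axis, with 0 counts left of the dotted line) in the 3 control libraries (circles) and 3 luteolin libraries (triangles), ordered by mean level within the role groups: Sprr and Lce families on the left, and on the right other envelope proteins, secreted and other keratinocyte proteins, desmosomal cadherins, plaque proteins and Trp63. Luteolin replicate 2 is the highest point for 58 genes, and 39 genes have all 3 control libraries at 0.

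Luteolin and control libraries were compared across all 14963 genes that passed edgeR's filter on low counts. Of the 62 members 26 passed it and 36 did not, since the filter asks for about 10 counts in at least 3 libraries and many members reached that in luteolin replicates 1 and 2 only. Among the 26, 12 had under 10 counts in at least 1 control library, and 7 of these had under 10 in every control and so could pass only by being higher under luteolin. The counts are therefore descriptions of the genes tested. The study called a gene changed at an unadjusted p under 0.05 and a fold above 2. By that threshold 13 of the 26 were higher in the luteolin group, where 11.3% of all tested genes were, and 1 was lower, where 1.52% were. At an adjusted p under 0.05 (quasi-likelihood test of edgeR, Benjamini-Hochberg over all tested genes) 0 of the 26 passed, against 1.52% of all tested genes. At an unadjusted p under 0.05 alone the counts were again 13 higher and 1 lower. DESeq2, run without the filter on low counts and so on more members than the 26, gave 25 members at an adjusted p under 0.05. With the filter, limma's voom gave 3. The share of all genes beside these counts is not given here. The smallest adjusted p that edgeR gave a member was 0.0721. Fold changes are from the same fit, with their standard error (SE). Of the 26, 11 lay above every control in every luteolin library, against 15.9% of all tested genes, and 1 lay below, against 12.8%. The median log2 fold change was 4.75 over the 26 and -0.007 over all tested genes. It includes the 7 members that could pass the filter only by being higher under luteolin, so it also describes only the genes tested. Without luteolin replicate 2 the medians were 1.81 over the tested members and -0.015 over all tested genes.

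Of the 39 members with 0 counts in every control library, 6 passed the filter, which they could do only by counts in all 3 luteolin libraries, and all 6 were higher at the study's threshold, as the filter made likely. Of the 14 with at least 10 counts in every control, all of which were tested, 3 were higher, and of the 6 other tested members 4 were. Those 6 had under 10 counts in at least 1 control library, so they too needed counts in luteolin libraries to pass the filter. Without luteolin replicate 2, 12 of 26 tested members were higher at that threshold, where 7.52% of all tested genes were, and 2 were lower, where 1.84% were. The median log2 fold change of the 14 genes read in every control was 1.63 with all libraries and -0.41 without that library. With no filter on low counts 42 of 61 members were higher, against 10.9% of all genes. Of the 39 genes at 0 in the controls, 29 were also at 0 in luteolin replicate 3 and the other 10 were above 0 there.

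Small proline-rich proteins are short crosslinking chains of the envelope, and several are induced in stressed or proliferating epithelium. The 15 Sprr genes summed to 8.34, 11.9 and 8.30 CPM in the controls and to 65.7, 557 and 7.96 CPM in the luteolin group. Replicate 3 thus lay below every control and the other luteolin libraries above. Sprr2a2 had 2, 2 and 6 counts in the controls and 1128, 17223 and 0 under luteolin, and Sprr2a1 had 2, 2 and 5 against 1064, 15955 and 0. Both were at 0 in luteolin replicate 3 and so failed the filter. Sprr2a3 had 5, 12 and 0 counts against 591, 3875 and 0. The log2 fold change of Sprr2a3 was 7.74 (SE 2.40, edgeR adjusted p = 0.150) and 5.80 (SE 2.09) without luteolin replicate 2.

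These 3 genes share reads. Of the read-length windows of 150 bases in the GENCODE M21 transcripts, 89.0% of those of Sprr2a2, 89.6% of those of Sprr2a1 and 19.0% of those of Sprr2a3 also occur in another gene, and the 250 bases before the start sites of Sprr2a1 and Sprr2a2 are identical at all 250 positions. How the counts were divided among them is therefore uncertain.

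Sprr1a, an Sprr gene with a single copy in this respect (0.0% of windows shared), was read in every library. It had 536, 706 and 435 counts in the controls and 805, 5619 and 481 under luteolin. Replicates 1 and 2 of the luteolin group exceeded every control in CPM and replicate 3 fell among them (7.53 CPM against 6.75 to 10.9). The log2 fold change was 1.80 (SE 0.79, edgeR adjusted p = 0.260) and 0.31 without luteolin replicate 2. Sprr1b, named after its values were seen, had 4, 0 and 5 counts against 277, 2269 and 12, and every luteolin library lay above every control.

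Sprr2k went the other way. It had 29, 48 and 84 counts in the controls and 8, 5 and 8 under luteolin, and the groups did not overlap. Sprr2k had a log2 fold change of -2.95 (SE 0.74, edgeR adjusted p = 0.101) and -2.64 without luteolin replicate 2. It was the only member lower at the study's threshold in the fit of all 6 libraries, and its level was low, at 0.820 ± 0.449 CPM in the controls and 0.105 ± 0.039 in the luteolin group (SD, n = 3 each). The other Sprr genes (Sprr2b, 2d, 2e, 2f, 2h and 2i, Sprr3 and Sprr4) had 0 counts in every control library and in luteolin replicate 3, and 12 to 557 counts in luteolin replicate 2. The pseudogene Sprr2j-ps had at most 8 counts in any library.

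Late cornified envelope proteins are added to the envelope near the skin surface. The 21 Lce genes summed to 45.3, 37.1 and 27.8 CPM in the controls and to 33.7, 440 and 18.3 CPM in the luteolin group. Only replicate 2 lay above the controls. Of the 21 genes, 16 had 0 counts in every control library, and 16 had 0 counts in luteolin replicate 3. Lce1a1 had 0 counts in the controls and 105, 6393 and 0 under luteolin, and Lce1b had 0 against 71, 3995 and 0. Against a limit of 3 counts in a control library the luteolin mean was at least 576-fold higher for Lce1a1 and at least 361-fold higher for Lce1b, and both bounds rest on replicate 2, since without it they were 18.9 and 12.8. They are 144 and 90.2 where 1 read pair counts as 4 units and the limit is 12 counts, and 4.74 and 3.20 without replicate 2. The bounds without replicate 2 rest on replicate 1 alone, because replicate 3 had 0 counts of both genes.

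Lce1g stood apart from its family. It had 2568, 1868 and 1529 counts in the controls and 1201, 2919 and 968 under luteolin. Its level per kb of exon, 32.2 CPM per kb, was the highest of all 62 genes in the control group, above Dsp at 18.6 and Jup at 12.2. Luteolin replicates 1 and 3 lay below every control, at 19.6 and 15.1 CPM against 23.7 to 36.7, and replicate 2 was within their range at 34.9. The log2 fold change was -0.36 (SE 0.34, edgeR adjusted p = 0.622) and -0.76 (SE 0.26, edgeR adjusted p = 0.202) without luteolin replicate 2. No 150-base window of its transcripts occurs in another gene. Lce1f had 341, 367 and 152 counts against 258, 4529 and 135, and Lce1h, named after its values were seen, had 159, 128 and 101 against 88, 792 and 56. In both, luteolin replicates 1 and 3 lay within or below the controls and replicate 2 above them. The 6 Lce3 genes were at 0 in every control and in luteolin replicate 3, with 39 to 243 counts in luteolin replicate 2. Lce3c, Lce3e and Lce3f share 15.1% to 36.8% of their windows with each other or with Lce3d and are uncertain.

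**Figure D2:**
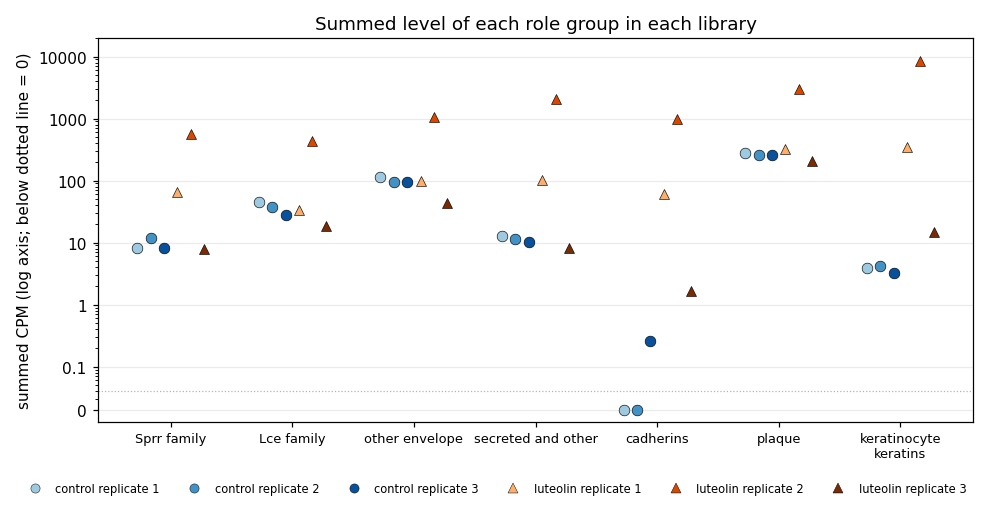
Summed CPM of each role group (log axis, 0 below the dotted line) in the 3 control libraries (circles) and 3 luteolin libraries (triangles), with the 7 keratins of keratinocytes at the right. Trp63 is not drawn. In each group drawn luteolin replicate 2 is highest, and luteolin replicate 3 lies below all 3 controls for the Sprr, Lce, other envelope, secreted and plaque groups and above them for the cadherins and the keratins.

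Among the other envelope and granular-layer proteins, filaggrin, its relative Flg2 and hornerin (Hrnr) are made as long repetitive precursors in keratohyalin granules. Flg had 0 counts in the controls and 1344, 11513 and 4 under luteolin. Hrnr had 0 against 373, 36928 and 0, and Flg2, named after its values were seen, had 0 against 117, 11599 and 0. All 3 genes failed the filter, and in each the order was replicate 2, then 1, then 3. The luteolin mean was at least 1177-fold higher for Flg and at least 3300-fold higher for Hrnr against a limit of 3 counts (294 and 825 against 12). The bounds were 243 and 67.3 (60.8 and 16.8 against 12) without luteolin replicate 2. Those for Hrnr then rest on luteolin replicate 1 alone, and those for Flg nearly so, with 4 counts in replicate 3.

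The plakin Evpl (envoplakin), its partner Ppl (periplakin) and Ivl (involucrin, named after its values were seen) form the early scaffold of the envelope, and all were read in every control. Evpl had 5307, 4113 and 3554 counts in the controls and 2703, 10582 and 1826 under luteolin. Ppl had 1591, 1479 and 1813 against 1075, 15179 and 692, and Ivl had 957, 603 and 802 against 320, 4451 and 281. In all 3 genes luteolin replicates 1 and 3 lay below every control in CPM and replicate 2 above every control. With all libraries the log2 fold changes were 0.035 for Evpl, 1.51 for Ppl and 0.83 for Ivl, and the edgeR test gave adjusted p values of 0.981, 0.451 and 0.682. Without luteolin replicate 2 they were -0.82 (SE 0.26) for Evpl, -0.77 (0.26) for Ppl and -1.28 (0.28) for Ivl, with unadjusted p values of 0.0160, 0.0222 and 0.00283 and adjusted p values of 0.171, 0.204 and 0.0765. Ivl was 1 of the 2 members lower at the study's threshold in that fit, beside Sprr2k.

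Dmkn (dermokine), Sbsn (suprabasin) and Krtdap are secreted by suprabasal keratinocytes. Dmkn had 0 counts in the controls and 2745, 67774 and 77 under luteolin, and Krtdap had 0 against 903, 27727 and 25. Every luteolin library of both lay above the controls. Their luteolin means were at least 6313-fold and 2555-fold higher against a limit of 3 counts (1578 and 639 against 12), and edgeR gave them adjusted p values of 0.129 and 0.148. Without luteolin replicate 2 the bounds were 508 and 167 (127 and 41.8 against 12), with adjusted p values of 0.0910 and 0.104 from edgeR. Krtdap and Dmkn had the highest levels per kb of all 62 genes in luteolin replicate 2, at 489 and 370 CPM per kb. Sbsn had 47, 19 and 45 counts against 1129, 43495 and 46, and luteolin replicate 3, at 0.720 CPM, exceeded the highest control, at 0.698, by little. Sbsn had a log2 fold change of 8.34 (SE 2.31, edgeR adjusted p = 0.120) and 4.12 without luteolin replicate 2.

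Sfn (stratifin), a 14-3-3 protein of epithelial cells, had 57, 48 and 56 counts in the controls and 785, 18061 and 84 under luteolin. Its luteolin libraries all lay above the controls. The log2 fold change was 6.57 (SE 1.79, edgeR adjusted p = 0.117) and 3.14 without luteolin replicate 2. Lypd3, which encodes a surface protein of upper keratinocytes and was named after its values were seen, had 775, 664 and 562 counts against 642, 9550 and 292. Replicate 3 lay below every control and replicate 1 among them. Calml3, an epithelial calmodulin-like gene also named after its values were seen, had 0 counts in the controls and 176, 4052 and 0 under luteolin.

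The desmosomal cadherins, whose 9 genes lie together on chromosome 18, had almost no counts in the controls. They summed to 0, 0 and 0.264 CPM in the controls and to 61, 984 and 1.69 CPM in the luteolin group. Of the 9 genes, 8 had 0 counts in every control library, Dsg2 had 17 in control replicate 3 alone, and Dsg4, a cadherin of the hair shaft, was at 0 in all 6 libraries. Dsg1a had 0 counts in the controls and 857, 29482 and 20 under luteolin, and Dsc3 had 0 against 917, 23412 and 32. Their luteolin means were at least 2704-fold and 2178-fold higher against a limit of 3 counts (676 and 544 against 12), and edgeR gave them adjusted p values of 0.153 and 0.140. Without luteolin replicate 2 the bounds were 158 and 171 (39.5 and 42.7 against 12), with adjusted p values of 0.112 and 0.0953 from edgeR. Dsc1, a suprabasal cadherin, had 0 against 815, 9921 and 4, and Dsg1b had 0 against 616, 9532 and 0. Dsg1a and Dsg1b share 18.1% and 23.8% of their windows with each other or with Dsg1c, so that the split of reads between them is uncertain.

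The desmosomal cadherins of simple epithelium, Dsg2 and Dsc2, were both low. Both were named after their values were seen. Dsg2 had 0, 0 and 17 counts in the controls and 24, 351 and 20 under luteolin. Dsc2 had 0 counts in the controls and 64, 317 and 28 under luteolin, so that every luteolin library lay above the controls. It had the smallest adjusted p of all members, 0.0721 (edgeR, unadjusted p = 0.00206), and its luteolin mean was at least 38.9-fold higher against a limit of 3 counts and 9.72-fold against 12. Without luteolin replicate 2 the bounds were 16.4 and 4.10, and the adjusted p from edgeR was 0.0769. The ratio of replicate 2 to replicate 1 was 3.63 for Dsc2, against 25.2 for Dsg1a and 18.7 for Dsc3.

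The plaque genes showed both patterns. Dsp, the plakin that anchors keratin, had 12045, 11632 and 11964 counts in the controls and 11973, 122837 and 9062 under luteolin. In CPM, replicate 2 was 7.52 times replicate 1, replicate 1 lay just above the controls (195 against 172 to 186) and replicate 3 below them (142). Its log2 fold change was 1.75 (SE 0.85, edgeR adjusted p = 0.307) and -0.070 (SE 0.17) without luteolin replicate 2. Jup had 6952, 4568 and 4191 counts against 4959, 31652 and 3786, with a log2 fold change of 1.14 and, without luteolin replicate 2, of -0.14 (SE 0.25). Pkp1, the plakophilin of stratified epithelium, had 0 counts in the controls and 1540, 45463 and 38 under luteolin, at least 4197-fold higher on average against a limit of 3 counts and 1049-fold against 12. These bounds were 284 and 71.1 without luteolin replicate 2. Perp, a membrane protein of desmosomes and a p53 and p63 target, had 310, 436 and 376 counts against 1695, 53397 and 419. Perp had a log2 fold change of 5.31 (SE 1.64, edgeR adjusted p = 0.149) and 1.61 (SE 0.55) without luteolin replicate 2. Luteolin replicate 3 was within the control range for Perp, at 6.56 CPM against 4.44 to 6.73.

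Trp63 had 13, 4 and 0 counts in the controls and 166, 6198 and 33 under luteolin. All 3 luteolin libraries lay above the controls in CPM (0.516 at the lowest against 0.186 at the highest). The log2 fold change was 8.23 (SE 2.22, edgeR adjusted p = 0.114) and 4.25 (SE 1.32, edgeR adjusted p = 0.170) without luteolin replicate 2.

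**Figure D3:**
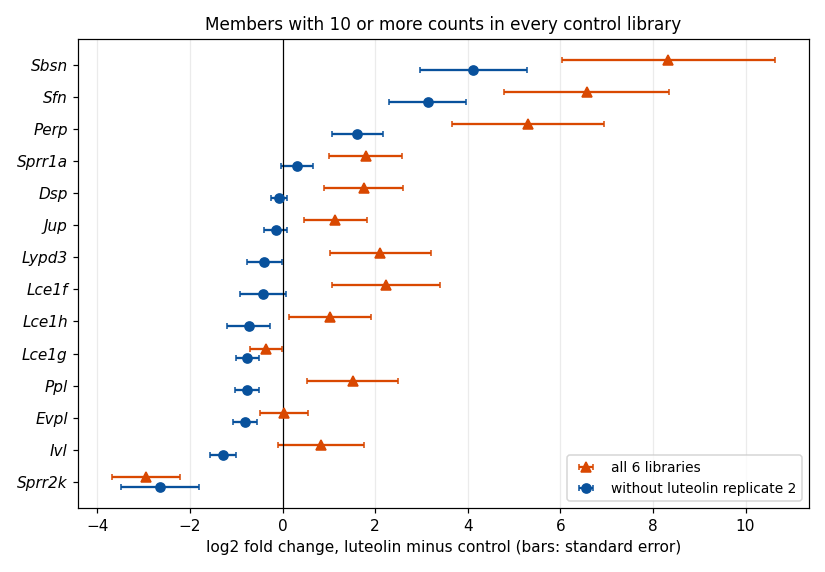
Log2 fold change (luteolin minus control, with standard error) of the 14 genes that had at least 10 counts in every control library, from edgeR with all 6 libraries (triangles) and without luteolin replicate 2 (circles). Sbsn, Sfn, Perp and Sprr1a stay above 0 in both fits and Sprr2k and Lce1g below 0, while Evpl, Ppl, Ivl, Dsp, Jup, Lypd3, Lce1f and Lce1h change from above to below 0.

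The members were compared with the keratins of the same libraries. Krt5, Krt14, Krt1 and Krt10 summed to 341, 7807 and 14.2 CPM in the luteolin group and to 3.91, 4.28 and 3.23 CPM in the control group, where only Krt10 was above 0. Per 100 CPM of these keratins, the members that were at 0 in the controls had 55.0, 48.1 and 26.2 CPM in luteolin replicates 1, 2 and 3. In replicate 3 that keratin sum includes Krt10 at 4.26 CPM, within its control range of 3.23 to 4.28, which lowers the ratio there. Levels of the 29 such members with at least 10 counts in replicates 1 and 2 were 3.50 to 106 times higher in replicate 2, with a median of 21.6. The same ratio was 15.6 to 37.4 for the 4 keratins, 63.8 for Krt15 and 1302 for Krt77, which had 24 counts in replicate 1, while Krt2 was at 0 in replicate 1. The median ratio was 8.26 for Sprr genes, 12.6 for desmosomal cadherins and 26.4 for Lce genes, each over the members of the family with enough counts. The 13 such members among those with at least 10 counts in every control had ratios of 1.78 (Lce1g) to 28.2 (Sbsn), with a median of 10.2.

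The 2 libraries also differed in which envelope genes led. These gene pairs were chosen after the values were seen, and each ratio comes from 1 library. Flg had 3.60 counts for each count of Hrnr in luteolin replicate 1 and 0.312 in replicate 2. The ratio of Flg to Flg2 was 11.5 in replicate 1 and 0.993 in replicate 2. Dsc1, found in upper layers, had 0.889 counts for each count of Dsc3, which is strongest in lower layers, in replicate 1 and 0.424 in replicate 2. The ratio of Dsg1a to Dsg3, another pair of an upper and a lower cadherin, went the other way, from 2.05 in replicate 1 to 3.71 in replicate 2. Repetin (Rptn), a relative of filaggrin and no member, had 771 counts in replicate 1 and 857 in replicate 2.

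**Figure D4:**
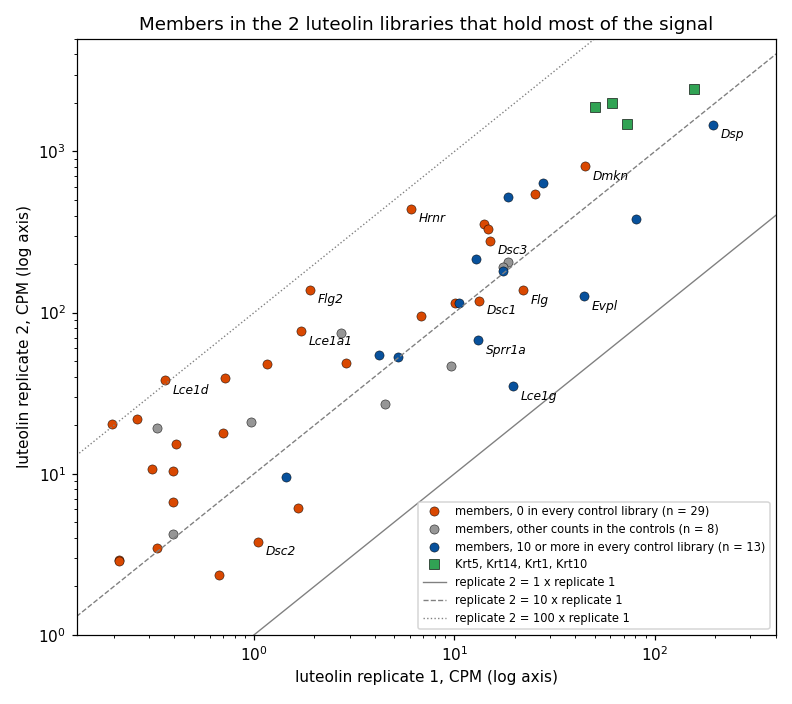
CPM in luteolin replicate 1 and replicate 2 (both log axes) of the 50 members with at least 10 counts in both, coloured by their counts in the control libraries, with Krt5, Krt14, Krt1 and Krt10 as squares and lines for equal, 10-fold and 100-fold levels. Members at 0 in the controls spread from 3.50-fold to 106-fold, and Lce1g and Evpl lie closest to the line of equal levels.

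Genes of the same processes outside the rule were taken from a list of 34 symbols, of which 32 were in the table and 20 passed the filter. At the study's threshold 13 of the 20 were higher in the luteolin group and 0 lower, beside 11.3% and 1.52% of all tested genes, and without luteolin replicate 2 the count higher was 5 of 20, beside 7.52%. Elovl4 and Rptn, at 0 in every control, and Abca12 and Spink5, with at most 8 counts in any control, could pass the filter only through the luteolin libraries. Alox12b and Asprv1, with 8 and 6 counts in their lowest control, also needed counts in a luteolin library. Of this list, Pkp4, Asprv1 and Klf4 had the highest mean level, and the others were picked after their values were seen. The crosslinking enzyme Tgm1 had 283, 212 and 269 counts in the controls and 489, 3338 and 311 under luteolin, with a log2 fold change of 2.20 (SE 0.78, edgeR adjusted p = 0.184). It was 0.76 (SE 0.32) without luteolin replicate 2 and no longer passed the study's threshold. Tgm5 was at 0 in every control and Tgm3 had no more than 4 counts there. Asprv1, a protease that processes filaggrin, had 16, 6 and 24 counts against 2341, 47272 and 65. The transcription factors Grhl3, at 0 in every control, and Klf4, with 39.4 to 45.5 CPM there, were both highest in luteolin replicate 2. Pkp4 and Pkp2, plakophilins used outside stratified epithelium, did not pass the threshold: Pkp4 had 109.6, 120.5 and 117 CPM against 111, 98.0 and 133, and Pkp2 had 27.1, 28.6 and 30.9 against 23.8, 16.7 and 26.8. Pkp3, the other plakophilin of the list, did not pass it either, with 9.96, 13.7 and 8.71 CPM against 12.6, 139 and 9.11. The log2 fold change of Pkp3 was 2.31 (SE 1.02, edgeR adjusted p = 0.262) and 0.028 without luteolin replicate 2.

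Marker lists of other tissues were read beside the members, with the genes above every control counted in brackets. Of all tested genes, 15.9% lay above every control in every luteolin library. The fibroblast list summed to 1408 to 1575 CPM in the control libraries and 2012 to 4976 in the luteolin libraries (5 of 6 genes above every control), and the leukocyte list to 229 to 324 and 427 to 601 CPM (5 of 6). The hepatocyte and hepatoma list summed to 45.9 to 134 and 77.0 to 189 CPM (1 of 8). The sebaceous gland list summed to 4.88 to 10.5 and 23.9 to 216 CPM (4 of 6). Awat1 of that list, picked after its values were seen, was at 0 in every control. Awat2 had 46, 56 and 54 counts in the controls and 40, 1699 and 41 under luteolin, and Mgst1 had 283 to 565 in the controls. The hair follicle list summed to 0.315 to 1.24 and 0.376 to 12.6 CPM (0 of 8). Its genes Dlx3, Tchh, Lhx2 and Krt71 were highest in luteolin replicate 2, at 747, 114, 164 and 22 counts. Krt27 and Krt31 were highest in a control library, at 6 and 10 counts. The hair keratins Krt25 and Krt35, picked after their values were seen, were at 0 in all 6 libraries. The adipocyte list, highest in luteolin replicate 2, summed to 13.8 to 58.7 and 15 to 233 CPM (0 of 5), and the skeletal muscle list to 461 to 1059 and 231 to 1050 CPM (0 of 6). Lep of the adipocyte list, picked after its values were seen, was at 0 in every control, while Fabp4 had 889 to 3107 counts there. The part that the amount of keratinocyte, sebaceous, adipose or fibroblast tissue in each sample had in the values of the members was not tested.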

How the data were processed

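Tumour RNA of 3 control and 3 luteolin libraries was sequenced in paired-end mode with reads of 150 bases. The table that the authors deposited holds unscaled whole numbers by gene symbol, treated here as estimated counts because multiples of 4 made up 44.8% of its low values (1 to 40). The submitters' processing notes name bcl2fastq 2.0, HISAT2, StringTie and DESeq2 and the builds mm39 and rn6. The counting tool, its strand setting and the annotation are not given in the sources used here, and 0 deposited columns were left out. Gene lengths, shared windows and overlaps came from GENCODE M21 (GRCm38) by symbol, in which all 62 members were found. Exons of 3 members (Dsg2, Dsp and Lypd3) overlap an antisense gene, and those of 3 (Sbsn, Sprr2a1 and Sprr2a2) a gene on the same strand, so their counts may hold reads of that gene. Promoters came from RefSeq (GRCm38.p6), and those of 45 members outside chromosome 18 were used.

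Counts were compared in R 4.3.3 with edgeR 4.0.16 (TMM, filterByExpr, quasi-likelihood test on group, two-sided, Benjamini-Hochberg over all genes tested), after a test on simulated data. Standard errors were derived from the F statistic. The alternatives were DESeq2 1.42.0, voom of limma 3.58.1 with sample quality weights, RLE and upper-quartile normalization, other filters, the replicate number as a block, each library left out and values divided by 4. A gene at 0 in every control was given a fold against 3 counts as a lower bound. The members and lists were chosen with earlier results of these data known. Members were named as the 4 with the highest mean CPM of each role group and those lower at the study's threshold, and other named members are marked as chosen after their values were seen or given within a range.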

Additional observations from a re-analysis of the deposited data

How the results depend on the processing

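Counts of members at the study's threshold (13 higher and 1 lower) moved with the test and with the filter, and the cause was not tested. The members tested changed as well. DESeq2 was run with no filter on low counts, and the other filters, division by 4 and leaving out a library could let members in or out. The counts and medians below are therefore not all over the same members. Shares of all genes are given above only for the main fit, the fit with no filter and the fit without luteolin replicate 2. The number higher was 32 in DESeq2, 6 in voom, 42 with no filter on low counts, 4 with at least 10 counts asked of every library, 5 with values divided by 4, and 3 over the members with at least 10 counts in every control, a set added after seeing the data. With each library left out it ranged from 12 to 45, highest without luteolin replicate 3, and was 22 without control replicate 2. The number lower was 0 with 10 counts asked of every library and with values divided by 4, and 1 to 2 with each library left out. Members at an adjusted p under 0.05 numbered 0, against 25 in DESeq2, 3 in voom, 6 with the replicate block and 0 to 5 with each library left out (5 without luteolin replicate 3). The 11 members above every control became 2 and 4 under the 10-count filter and division by 4, and ranged from 11 to 41 with each library left out. Companion genes higher, 13 in the main comparison, numbered 4 in voom, 22 with no filter, 8 with the 10-count filter, 8 with values divided by 4, 5 with the block and 5 to 26 with each library left out. The median log2 fold change of tested members, 4.75, was 8.29 in DESeq2, 9.07 with no filter, 1.74 with the 10-count filter, 1.94 after division by 4 and 1.81 to 10.8 with each library left out.

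Direction turned for Evpl (-0.59 in voom, -0.014 with no filter, -0.26 with the block, and -0.82 to 0.32 with each library left out), for Lce1f (-0.28 in voom) and for Ppl (-0.39 in voom). With each library left out the log2 fold change ranged from -0.43 to 2.71 for Lce1f, from -0.77 to 1.97 for Ppl, from -0.070 to 2.17 for Dsp and from -0.14 to 1.48 for Jup, each lowest without luteolin replicate 2. The replicate numbers showed no clear pairing of the libraries: deviations of same-numbered libraries from their group means correlated at -0.29, -0.077 and 0.22 across genes, which are not independent replicates. With 3 libraries per group such correlations cannot exclude a pairing. Of the values of single members under these alternatives, 200 kept direction and side of the threshold, 9 newly passed it, 14 no longer passed and 12 turned. Depth limits members at 0, for which up to 3 counts per library, or 12 where 1 read pair counts as 4 units, would still be read as 0.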

Other observations

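Epithelial genes outside the cornified envelope and the desmosome were read in the same libraries with a list of 7 simple-epithelium markers, whose sum was 404 to 429 CPM in the controls and 316 to 507 CPM in the luteolin group. Krt18, the simple-epithelium keratin with the highest level, had 266, 250.5 and 225 CPM in the controls and 234, 193 and 209 CPM in the luteolin group. Its partner Krt8, picked after its values were seen, had 1.71 to 2.53 CPM in the controls and 0.790 to 3.54 in the luteolin group. Cdh1, which encodes E-cadherin, the cadherin of the adherens junction, had 3.83, 4.91 and 5.94 CPM in the controls and 28.6, 151 and 20.3 CPM in the luteolin group, so that every luteolin library lay above every control. Cdh1 had a log2 fold change of 3.76 (SE 0.81, edgeR adjusted p = 0.0758) and 2.34 (SE 0.27, edgeR adjusted p = 0.0244) without luteolin replicate 2. Epcam, an epithelial adhesion gene, had 119, 127 and 135 CPM against 60.9, 102 and 46.6 CPM, below every control in every luteolin library. Epcam had a log2 fold change of -0.86 (SE 0.29, edgeR adjusted p = 0.168) and -1.22 (SE 0.18, edgeR adjusted p = 0.0313) without luteolin replicate 2.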
